A study of Homo sapiens with 48 samples.

Results

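The dual-specificity MAP kinase phosphatases DUSP1, DUSP2, DUSP4, DUSP5, DUSP6, DUSP7, DUSP8, DUSP9, DUSP10 and DUSP16 are the 10 genes described here, taken by symbol from a table of 60610 genes. Each symbol matched 1 row, and 9 of the 10 passed the filter on low counts. DUSP2 was measured in every library but was too low to be tested. The cells were HEK293, a human embryonic kidney line, as a single clone carrying a stable copy of AT1R, which is the angiotensin II (AII) receptor of type 1. The clone was selected with puromycin. The AT1R blocker losartan was present during selection, so that AII left in the serum would not activate the receptor. In serum-free medium the clone received no stimulus (control), 1 nM AII, 10 µg/L EGF or both together (AII + EGF) for 6 h or 24 h, and poly(A) RNA was sequenced. The labels give 6 libraries to each of these 8 groups, all from the same clone, so every value is that of 1 clone. AGTR1, the AT1R gene, ranged from 3968 to 15260 CPM and EGFR from 16.7 to 49.4 CPM over the 48 libraries, and the part of this range in the results was not tested.

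Of the 48 libraries, 10 were set aside. Each of 8 belonged to 1 of 4 pairs whose counts differed by less than the sampling of reads gives, with a chi-square per degree of freedom of 0.397 to 0.505 against 2.02 or more for every other pair within a group, and 3 of these pairs join different labels. The other 2, AII 6 h replicate 6 and AII + EGF 6 h replicate 6, had labels in doubt. On a scale where the AII 6 h libraries average 0 and the AII + EGF 6 h libraries average 1, over 1489 genes without the phosphatases, they lay at 0.855 and -0.00524. These 2 were recognised by their expression, so values with all 48 libraries are given beside results of the members that lose or gain a pass or a call with them. The remaining 38 libraries held 17.78 to 29.96 M counts each, in 4 control, 5 AII, 3 EGF and 4 AII + EGF libraries at 6 h and in 6, 5, 5 and 6 at 24 h. The 3 EGF libraries of 6 h were the deepest, at 28.03 to 29.96 M, where no library of another group exceeded 26.93 M. The part of this depth in the results for EGF at 6 h was not tested. The HEK293 markers VIM, CDH2, KRT8, KRT18, NEFL and NEFM were present in all 48 libraries and PAX2 was low (0.271 to 3.84 CPM). PTPRC, PECAM1, ALB and HBB stayed at or under 0.397 CPM, whereas COL1A1 reached 9.25 to 45.2 CPM. The labels do not say that libraries of a group came from separate cultures. The p-values therefore measure the spread between these libraries, which may be technical. Other pairs within a group had a median of 48.9 by the chi-square measure above, but some kept pairs lay far lower. They included AII 6 h replicates 1 and 2 (2.02) and EGF 6 h replicates 3 and 4 (3.32). AII + EGF 24 h replicates 1 and 2 followed at 3.96. All fits counted such libraries as separate, including the 3 of EGF at 6 h. The part of this closeness in the standard errors and p-values was not tested.

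MAP kinases are active when a threonine and a tyrosine of their activation loop are both phosphorylated, and dual-specificity phosphatases remove both phosphates. Several of these phosphatases are themselves transcribed when the kinase they switch off is active, and so form a feedback loop on ERK, JNK or p38. EGF acts through a receptor tyrosine kinase upstream of ERK, and AT1R is a G protein-coupled receptor that can also feed into ERK. By their known preference the members fall into 4 ERK-selective enzymes (DUSP5 in the nucleus; DUSP6, DUSP7 and DUSP9 in the cytoplasm), 3 stress kinase enzymes that act on JNK and p38 (DUSP8, DUSP10, DUSP16) and 3 nuclear inducible enzymes of broader preference (DUSP1, DUSP2, DUSP4).

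Levels are given as CPM, counts relative to the library total, scaled with TMM factors. Where genes are compared with each other, the level is CPM per kilobase of exon. On that scale DUSP1 and DUSP16 were the highest members in the 6 h control at 11.6 ± 1.12 and 11.1 ± 0.342 CPM per kilobase (SD, n = 4), a gap smaller than the spread of DUSP1. DUSP7 followed at 7.92 ± 0.849, DUSP9 at 6.86 ± 0.595 and DUSP8 at 5.40 ± 0.243, and the intervals of 1 SD around DUSP7 and DUSP9 overlapped. DUSP10, DUSP5 and DUSP4 formed a lower group at 1.58 ± 0.253, 1.42 ± 0.154 and 1.12 ± 0.141, and the intervals of 1 SD overlapped between neighbours. DUSP6 stood at 0.120 ± 0.0397 and DUSP2 at 0.0353 ± 0.0538 CPM per kilobase. In these bulk cultures, fewer cells that express a gene and less of its RNA per cell cannot be told apart.

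**Figure D1:**
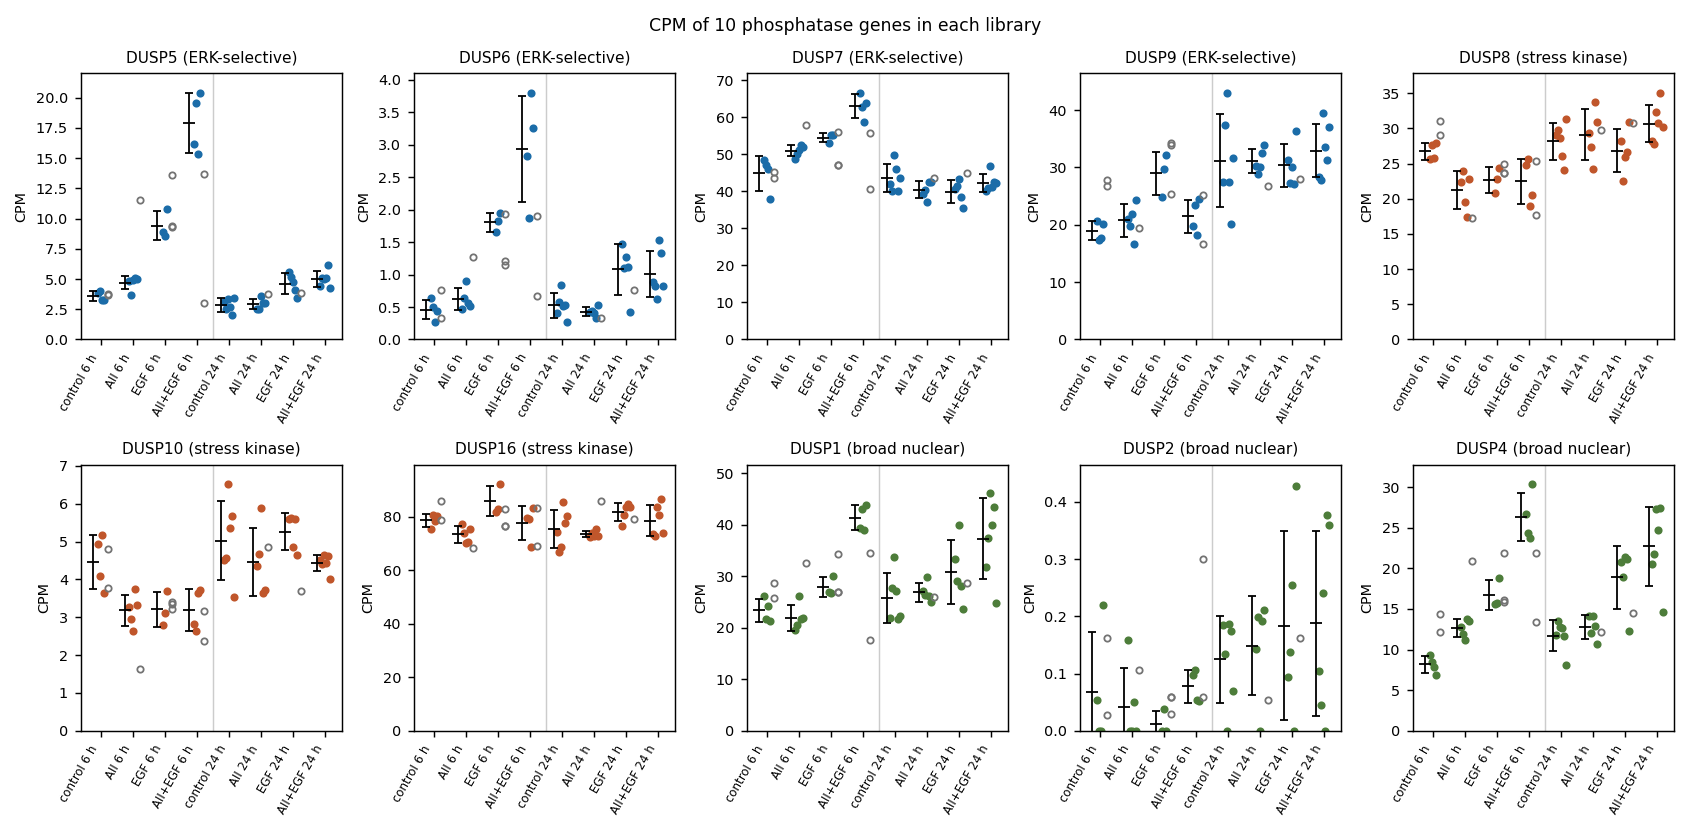
Each panel plots 1 phosphatase gene, with CPM on a linear axis that starts at 0 and the 8 groups of treatment and time along the horizontal axis. Filled points are the 38 libraries used, black marks are mean ± SD, and open points are the 10 libraries set aside, scaled within all 48. DUSP5, DUSP6 and DUSP4 climb from control through AII and EGF to AII + EGF at 6 h and have lower means under AII + EGF at 24 h than at 6 h, while DUSP16 keeps between 66.9 and 92.2 CPM throughout.

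The sequence just upstream of the transcription start was read for the members listed in the RefSeq promoter table (GRCh38.p14), which held 8 of the 10 (10 windows). DUSP4 and DUSP5 were not among them. DUSP6 and DUSP1 rose under AII + EGF, while the stress kinase members DUSP8 and DUSP16 did not pass the test in the 38 libraries. With all 48 libraries DUSP8 passed downward under AII and under AII + EGF at 6 h. Windows of 250 bases are shown for these genes. All 4 are written 5′ to 3′ on the strand of the gene, which is the minus strand in each case, with the last base just before the start site. Capitals mark matches, on either strand, to the CRE half-site TGACG, the ETS core CGGAAG, the AP-1 site TGANTCA, the EGR core GCGNGGG or the CArG box, the element bound by SRF. TGACG read on both strands makes up the palindromic CRE, so a palindrome counts as 2 matches.
DUSP6 chr12:89352502-89352751: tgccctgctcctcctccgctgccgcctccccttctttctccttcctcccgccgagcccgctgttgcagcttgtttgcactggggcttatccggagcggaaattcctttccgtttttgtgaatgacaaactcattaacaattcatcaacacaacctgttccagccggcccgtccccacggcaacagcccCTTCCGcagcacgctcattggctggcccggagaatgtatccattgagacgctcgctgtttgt
DUSP1 chr5:172771196-172771445: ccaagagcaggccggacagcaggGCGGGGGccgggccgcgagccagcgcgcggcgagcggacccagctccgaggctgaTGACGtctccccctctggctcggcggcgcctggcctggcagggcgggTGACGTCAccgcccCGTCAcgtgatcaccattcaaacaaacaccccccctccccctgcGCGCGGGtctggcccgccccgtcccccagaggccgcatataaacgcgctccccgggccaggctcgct
DUSP8 chr11:1572272-1572521: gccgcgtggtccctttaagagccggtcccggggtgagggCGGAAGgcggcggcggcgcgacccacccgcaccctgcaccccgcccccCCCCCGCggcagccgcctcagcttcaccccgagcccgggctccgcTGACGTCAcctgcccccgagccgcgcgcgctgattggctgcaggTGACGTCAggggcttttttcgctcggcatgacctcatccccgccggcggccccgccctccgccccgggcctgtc
DUSP16 chr12:12562864-12563113: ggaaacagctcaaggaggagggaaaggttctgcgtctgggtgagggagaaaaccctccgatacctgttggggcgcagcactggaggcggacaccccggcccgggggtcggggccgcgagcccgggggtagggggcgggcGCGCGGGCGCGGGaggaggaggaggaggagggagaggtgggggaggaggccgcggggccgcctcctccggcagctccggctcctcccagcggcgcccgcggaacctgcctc

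DUSP6 held 1 match, an ETS core on the opposite strand at -62 from the start site. DUSP1 held 4 CRE half-site matches, of which those at -125 and -122 form 1 palindrome, and 2 EGR cores at -227 and -67. DUSP8 also held 4 CRE half-site matches, as 2 palindromes at -118 and -74, with 1 ETS core and 1 EGR core, and its window begins at a start site inside the gene's outer limits. DUSP16 held 2 overlapping EGR cores at -111 and -105. None of the 4 windows held an AP-1 or CArG match. Among 35116 promoter windows of the same length, 21.2% held the CRE half-site, 16.5% the ETS core, 6.57% the AP-1 site, 31.4% the EGR core and 1.16% a CArG box. The CRE half-site was present both in DUSP1 and in DUSP8, and a match is a description of the letters only.

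A member passed the test at an adjusted p under 0.01, from edgeR's quasi-likelihood test adjusted by Benjamini and Hochberg across 19626 genes. It was called when its change also reached 1.5-fold and its mean exceeded 5 CPM in the higher group. After 6 h of EGF, 2 of the 9 tested members were called higher (DUSP4 and DUSP5), against 1.62% of all genes tested, and 3 passed the test upward (with DUSP6), against 2.71%. After 6 h of AII, 0 of 9 were called or passed the test, against 0.459% of genes called higher and 0.922% past the test; DESeq2 called 1 of the 9, DUSP4, and edgeR's unadjusted p was under 0.05 for 5 of them. After 6 h of AII + EGF, 3 of 9 were called higher (DUSP1, DUSP4 and DUSP5), against 6.45%, and 5 of 9 passed the test upward (with DUSP6 and DUSP7), against 12.4%. No member passed the test downward under AII, EGF or AII + EGF in the 38 libraries, against 0.0866%, 0.657% and 11% of all genes. The median log2 change of the 9 members was 0.13 under AII, 0.28 under EGF and 0.49 under AII + EGF, beside medians of -0.01, -0.01 and -0.03 over all genes tested.

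**Figure D2:**
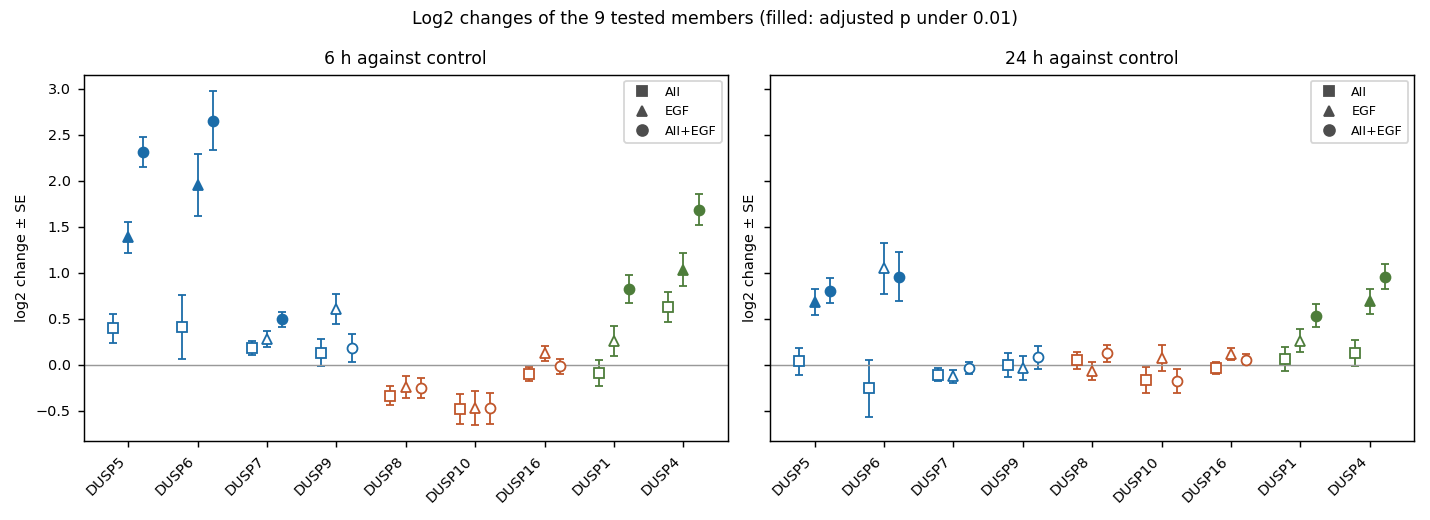
Log2 change against the control of the same time, with its standard error, for the 9 tested members under AII (squares), EGF (triangles) and AII + EGF (circles), at 6 h on the left and 24 h on the right. Symbols are filled where the adjusted p was under 0.01, blue for ERK-selective, orange for stress kinase and green for broad nuclear members. At 6 h DUSP5, DUSP6, DUSP4 and DUSP1 have filled circles above 0.8, and DUSP8, DUSP10 and DUSP16 have none.

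DUSP5, the nuclear ERK phosphatase (chr10:110497907-110511533, GRCh38), had the lowest p of all members. At 6 h the control libraries held 3.83, 4.01, 3.23 and 3.29 CPM and the AII libraries 4.84, 3.71, 4.92, 5.099 and 4.999 CPM. The EGF libraries held 8.88, 8.54 and 10.8 CPM and the AII + EGF libraries 16.2, 19.6, 15.4 and 20.4 CPM. Every EGF library lay above all control and AII libraries, and every AII + EGF library above all EGF libraries, while AII and control overlapped. Higher without overlap were 13.2% of all genes for EGF over control and 13.9% for AII + EGF over EGF. Against control the log2 change was 1.39 ± 0.17 under EGF (edgeR adjusted p = 2.76e-07) and 2.32 ± 0.16 under AII + EGF (edgeR adjusted p = 3.81e-14), a rise of 4.98-fold. The AII value of 0.39 ± 0.16 did not pass (edgeR adjusted p = 0.245). With all 48 libraries the changes were 1.46 ± 0.24 and 2.00 ± 0.24, both called.

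At 24 h DUSP5 lay from 2.01 to 3.42 CPM with a median of 2.900 in the control group and from 4.27 to 6.16 CPM with a median of 5.04 under AII + EGF. The AII libraries held 2.54, 2.498, 3.58, 3.02 and 3.06 CPM and the EGF libraries 5.596, 5.17, 4.73, 4.13 and 3.47 CPM. The EGF and AII + EGF libraries all stayed above the control libraries, as did 0.662% and 2.62% of all genes. The change passed under EGF (0.69 ± 0.14, edgeR adjusted p = 0.00446), with a mean under 5 CPM, and was called under AII + EGF (0.81 ± 0.13, edgeR adjusted p = 3.56e-05), where the mean of 5.01 CPM was just over the minimum. That call was lost to the minimum without control replicate 1 or AII + EGF replicate 4 or 5 of 24 h. In all 48 libraries neither passed (edgeR adjusted p = 0.297 and 0.0188).

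DUSP6, the cytoplasmic ERK phosphatase best known as a feedback target of growth factor signalling (chr12:89347235-89352501), moved by the largest fold of the members from a very low level. At 6 h it held 0.638, 0.501, 0.269 and 0.438 CPM in control, 5 to 12 counts per library, and 0.474, 0.644, 0.899, 0.555 and 0.5199 CPM under AII. Under EGF it held 1.65, 1.82 and 1.95 CPM and under AII + EGF 2.83, 1.87, 3.798 and 3.25 CPM, 35 to 71 counts per library. The EGF and AII + EGF libraries lay above all control and AII libraries and overlapped with each other. Higher than control without overlap were 13.2% of all genes under EGF and 17.4% under AII + EGF. The log2 change was 1.95 ± 0.34 under EGF (edgeR adjusted p = 1.12e-04) and 2.65 ± 0.32 under AII + EGF (edgeR adjusted p = 1.93e-08). Both rises passed the test and neither was called, since the means were under 5 CPM. Over the 48 libraries the changes were 1.70 ± 0.31 and 2.24 ± 0.31, and both still passed.

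At 24 h DUSP6 held 1.47, 1.11, 1.28, 1.12 and 0.428 CPM under EGF and lay from 0.628 to 1.54 CPM with a median of 0.854 under AII + EGF. The control group lay from 0.276 to 0.842 CPM with a median of 0.518, and the AII libraries held 0.4305, 0.436, 0.408, 0.336 and 0.527 CPM. Both stimulated groups overlapped with control. The AII + EGF change of 0.96 ± 0.27 passed narrowly (edgeR adjusted p = 0.00953, and 0.0351 with all 48 libraries) and was lost in 22 of the 38 fits that leave out 1 library, and the EGF change of 1.05 ± 0.28 did not (edgeR adjusted p = 0.0359).

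DUSP7, the second cytoplasmic ERK phosphatase (chr3:52048919-52056571), was abundant and moved by small steps. At 6 h the control libraries held 48.5, 47.2, 45.98 and 37.8 CPM and the AII libraries 48.9, 50.2, 51.3, 52.5 and 52.1 CPM. The EGF libraries held 53.2, 55.2 and 55.3 CPM and the AII + EGF libraries 66.6, 62.9, 58.8 and 63.97 CPM. The 4 groups did not overlap in this order. Higher than control without overlap were 4.88% of all genes under AII, 13.2% under EGF and 17.4% under AII + EGF. The AII + EGF change of 0.49 ± 0.08 passed the test (edgeR adjusted p = 7.39e-06) but was under 1.5-fold, and it passed with all 48 libraries as well (0.37 ± 0.08). The AII and EGF changes of 0.18 ± 0.08 and 0.28 ± 0.09 did not pass. At 24 h the control group lay from 40.01 to 49.8 CPM with a median of 42.9 and the AII + EGF group from 40.2 to 46.9 CPM with a median of 41.7, which overlap almost entirely.

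DUSP9, the third cytoplasmic ERK phosphatase (chrX:153642441-153651326), was the ERK-selective member that did not pass the test under AII + EGF. At 6 h it held 20.6, 17.4, 17.7 and 20.2 CPM in control and 21.05, 19.8, 21.9, 16.7 and 24.4 CPM under AII. It held 24.9, 29.7 and 32.2 CPM under EGF and 19.9, 23.4, 18.3 and 24.4 CPM under AII + EGF. Only the EGF libraries stood apart from control, as did 13.2% of all genes in that direction, and the AII + EGF libraries all lay below the EGF libraries. The EGF change was 0.61 ± 0.16, or 1.52-fold, and missed the threshold (edgeR adjusted p = 0.0165), though it passed under 5 of the alternatives, DESeq2 among them. The AII + EGF change was 0.18 ± 0.15 (edgeR adjusted p = 0.411), with a 95% interval of -0.13 to 0.49.

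DUSP9 was also the only member called between the 2 control groups, against 4.77% of all genes called higher at 24 h than at 6 h. The 24 h control lay from 20.1 to 42.99 CPM with a median of 29.6, so that its lowest library overlapped with the 6 h control. The log2 change was 0.72 ± 0.14 (edgeR adjusted p = 2.09e-04). The 2 control libraries of 6 h set aside held 27.8 and 26.8 CPM, and with all 48 libraries the change was 0.53 ± 0.13, under 1.5-fold. At 24 h the 4 groups of DUSP9 had means between 30.4 and 32.9 CPM and no stimulated group passed the test.

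DUSP8, a stress kinase phosphatase (chr11:1554051-1572848), was lower under every stimulus at 6 h without passing the test. The control libraries held 25.7, 27.7, 25.8 and 27.96 CPM and the AII libraries 22.4, 23.9, 19.6, 17.4 and 22.9 CPM. The EGF libraries held 20.8, 22.8 and 24.4 CPM and the AII + EGF libraries 24.7, 25.6, 18.99 and 20.6 CPM. All stimulated libraries lay below all control libraries. The share of all genes without overlap in that direction was 2.64% for AII, 8.88% for EGF and 15.9% for AII + EGF. The log2 change was -0.34 ± 0.11 under AII, -0.24 ± 0.12 under EGF and -0.25 ± 0.11 under AII + EGF (edgeR adjusted p = 0.106, 0.301 and 0.0844). Among all 48 libraries the fall passed the test under AII (-0.44 ± 0.10, edgeR adjusted p = 0.00496) and under AII + EGF (-0.34 ± 0.10, edgeR adjusted p = 0.00425), in both cases short of 1.5-fold.

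DUSP10, also known as MKP5 (chr1:221701424-221742089), showed a like pattern at a lower level. The control libraries of 6 h held 4.95, 4.103, 5.16 and 3.64 CPM, the AII libraries 3.26, 2.95, 2.64, 3.74 and 3.32 CPM and the EGF libraries 2.81, 3.11 and 3.703 CPM. The AII + EGF libraries held 2.83, 2.62, 3.64 and 3.72 CPM. Each stimulated group was lower on average than control and overlapped with it. The 3 log2 changes were -0.48 ± 0.16, -0.47 ± 0.18 and -0.47 ± 0.17 in the order AII, EGF and AII + EGF, the last with an edgeR adjusted p of 0.0285. With all 48 libraries that last change was -0.54 ± 0.15 and passed (edgeR adjusted p = 0.00466), although all its means were under 5 CPM.

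DUSP16, known as MKP7 (chr12:12473282-12562863), had the highest CPM of the members and, under AII + EGF at 6 h, the smallest change. At 6 h it held 75.5, 80.9, 78.7 and 80.4 CPM in control and 79.5, 79.4, 68.9 and 83.3 CPM under AII + EGF. The AII libraries held 77.5, 73.9, 70.2, 70.5 and 75.6 CPM and the EGF libraries 82.04, 83.2 and 92.2 CPM. AII and AII + EGF overlapped with control, whereas all 3 EGF libraries lay above it, as was so for 13.2% of all genes. The AII + EGF change was -0.02 ± 0.08 with a 95% interval of -0.18 to 0.14, and the EGF change was 0.12 ± 0.08 with an interval of -0.05 to 0.29. At 24 h the 3 stress kinase members had log2 changes between -0.18 and 0.12 under AII + EGF, and none passed the test.

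DUSP4, an inducible nuclear phosphatase on chromosome 8 known as MKP2, was higher under each stimulus at 6 h. The control libraries held 9.36, 8.52, 7.905 and 6.92 CPM and the AII libraries 12.8, 11.9, 11.2, 13.8 and 13.6 CPM. The EGF libraries held 15.6, 15.7 and 18.9 CPM and the AII + EGF libraries 26.7, 24.4, 23.8 and 30.4 CPM. The 4 groups did not overlap in this order. The share of all genes higher than control without overlap was 4.88% for AII, 13.2% for EGF and 17.4% for AII + EGF. DUSP4 was called under EGF (1.03 ± 0.18, edgeR adjusted p = 1.10e-04) and under AII + EGF (1.69 ± 0.17, edgeR adjusted p = 3.25e-10), and missed the threshold under AII (0.63 ± 0.16, edgeR adjusted p = 0.0265). In all 48 libraries the changes were 0.80 ± 0.18 and 1.22 ± 0.18, both called. The 2 control libraries set aside held 14.4 and 12.1 CPM, above the 4 that were kept.

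At 24 h DUSP4 lay from 8.08 to 13.5 CPM with a median of 12.2 in control and from 14.7 to 27.4 CPM with a median of 23.3 under AII + EGF, without overlap. The share of all genes higher than control without overlap was 2.62% there. The AII libraries held 14.1, 12.01, 14.1, 12.96 and 10.7 CPM and the EGF libraries 20.7, 18.9, 21.4, 21.1 and 12.2 CPM. All but 1 of the EGF libraries lay above every control library. The AII + EGF change of 0.96 ± 0.13 was called (edgeR adjusted p = 2.90e-06) and stayed called with all 48 libraries (0.96 ± 0.18). The EGF change of 0.69 ± 0.14 was called as well (edgeR adjusted p = 0.00425), but not with all 48 libraries (edgeR adjusted p = 0.109) nor without 1 of 6 libraries in turn (control replicates 1 and 6 and EGF replicates 1, 3, 4 and 5).

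DUSP1, known as MKP1, a nuclear immediate-early phosphatase that acts on p38, JNK and ERK (chr5:172768096-172771195), was higher at 6 h under both stimuli together. The control libraries held 26.2, 21.7, 24.2 and 21.4 CPM and the AII libraries 19.5, 20.6, 26.1, 21.7 and 21.95 CPM. The EGF libraries held 26.9, 26.6 and 30.1 CPM and the AII + EGF libraries 39.4, 42.9, 39.1 and 43.9 CPM. All AII + EGF libraries stood well clear of the rest, EGF lay narrowly above control, and AII overlapped with control. Higher than control without overlap were 17.4% of all genes under AII + EGF and 13.2% under EGF. A change of 0.82 ± 0.15 under AII + EGF was called (edgeR adjusted p = 3.41e-05). The AII change of -0.09 ± 0.14 and the EGF change of 0.26 ± 0.16 did not pass (edgeR adjusted p = 0.868 and 0.437). Over the 48 libraries the AII + EGF change was 0.54 ± 0.15, which passed the test (edgeR adjusted p = 0.00411) but fell short of 1.5-fold.

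At 24 h DUSP1 lay from 21.7 to 33.8 CPM with a median of 24.7 in control and from 24.8 to 46.2 CPM with a median of 38.7 under AII + EGF, with overlap. Under AII + EGF the change of 0.53 ± 0.12 passed the test at 1.45-fold (edgeR adjusted p = 0.00159), and not with all 48 libraries (edgeR adjusted p = 0.0109). DUSP2, the other inducible nuclear member (chr2:96143169-96145440), had 0 to 11 counts in any of the 38 libraries and means of 0.0127 to 0.188 CPM, too low for a comparison.

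At 24 h, AII left 0 of 9 members called or past the test, as it did 0% of all genes in edgeR. For AII at 24 h the edgeR unadjusted p was at least 0.127 for each member, and DESeq2 called none of them. EGF at 24 h had 1 of 9 called higher (DUSP4), against 0.163% of all genes, and AII + EGF 2 of 9 (DUSP4 and DUSP5), against 1.7%. The number of members past the test upward was 2 under EGF and 4 under AII + EGF, beside 0.392% and 5.29% of all genes. With all 48 libraries 0 remained under EGF and 1 under AII + EGF, DUSP4.

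Whether AII adds to EGF was read from AII + EGF against EGF alone. At 6 h, 1 of 9 members was called higher, DUSP5, against 1.62% of all genes, with a log2 difference of 0.93 ± 0.17 (edgeR adjusted p = 1.45e-04). DUSP4 and DUSP1 differed by 0.65 ± 0.18 and 0.57 ± 0.16, without overlap of the libraries (13.9% of all genes), and narrowly missed the threshold (edgeR adjusted p = 0.0118 and 0.0176). Both were called when stretches of consecutive sample titles entered the fit as a block (edgeR adjusted p = 6.27e-05 for DUSP4 and 0.00105 for DUSP1). Among all 48 libraries the DUSP5 difference was 0.53 ± 0.23 and did not pass (edgeR adjusted p = 0.167). The library labelled AII + EGF 6 h replicate 6 held 3.004 CPM of DUSP5 and 17.7 of DUSP1, and that labelled AII 6 h replicate 6 held 11.5 and 32.5 CPM. At 24 h none of the 9 members was called between AII + EGF and EGF (0.0815% of genes called higher) in edgeR. The unadjusted edgeR p was under 0.05 for 1 of them, DUSP1 (0.0382), and DESeq2 called none.

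Whether EGF adds to AII was read from AII + EGF against AII alone. At 6 h DUSP1, DUSP4 and DUSP5 were called higher, 3 of 9 against 4.21% of all genes, by 0.91 ± 0.14, 1.05 ± 0.15 and 1.92 ± 0.15, and all 3 stayed called with all 48 libraries. DUSP6 (2.25 ± 0.29) and DUSP7 (0.31 ± 0.08) passed without being called, which makes 5 of 9 against 9.48%; DUSP7 lost this with all 48 libraries (0.15 ± 0.08, edgeR adjusted p = 0.259) and without AII + EGF 6 h replicate 1 (edgeR adjusted p = 0.0121). At 24 h DUSP4 (0.83 ± 0.14) and DUSP5 (0.77 ± 0.14) were called, 2 of 9 against 0.856%. With all 48 libraries DUSP5 was at an edgeR adjusted p of 0.0542 there.

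The interaction of the stimuli on the log2 scale is 0 where the fold change under AII + EGF is that of AII multiplied by that of EGF. At 6 h 0 of 9 members passed the test, against 0.265% of all genes in either direction, although the unadjusted edgeR p was under 0.05 for 3 of them. The interaction was 0.66 ± 0.22 for DUSP1 (95% interval 0.22 to 1.09, edgeR adjusted p = 0.177), 0.53 ± 0.23 for DUSP5 (edgeR adjusted p = 0.381) and -0.56 ± 0.22 for DUSP9 (edgeR adjusted p = 0.325). When only the groups compared entered the fit, DUSP1 was called (edgeR adjusted p = 0.00906). In all 48 libraries the interaction was 0.39 ± 0.21 for DUSP1 and -0.15 ± 0.33 for DUSP5, a change of sign for the latter. DUSP4 (0.02 ± 0.24) and DUSP7 (0.02 ± 0.12) had estimates close to 0. Their 95% intervals, -0.46 to 0.51 and -0.21 to 0.26, include departures from the product of the single changes in either direction. At 24 h 0 of 9 passed, as did 0% of all genes, with the lowest unadjusted edgeR p of the members at 0.0548 (DUSP7).

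On the linear scale the rise under AII + EGF at 6 h was set against the sum of the single rises, as a description of group means with a standard error and no test. DUSP1 was higher by 17.96 CPM under AII + EGF and 4.503 CPM under EGF and changed by -1.40 CPM under AII, an excess of 14.9 ± 2.30 CPM (SE) over the sum. The excess was 7.37 ± 1.46 CPM for DUSP5, 5.12 ± 1.97 CPM for DUSP4 and 0.9749 ± 0.429 CPM for DUSP6. DUSP7 had 2.40 ± 3.05 CPM, within its error of 0. Of the stress kinase members, DUSP8 had 5.36 ± 2.34 CPM and DUSP10 1.27 ± 0.555 CPM, with a difference from control under AII + EGF less negative than the sum of those under AII and EGF, and DUSP16 had -2.71 ± 4.85 CPM. DUSP9 went the other way at -9.23 ± 2.99 CPM, since its level under AII + EGF was below that under EGF. Over the 48 libraries the excess at 6 h was 8.34 ± 4.67 CPM for DUSP1, 2.32 ± 2.88 CPM for DUSP5, 1.82 ± 3.11 CPM for DUSP4 and -7.50 ± 3.08 CPM for DUSP9, so that those of DUSP5 and DUSP4 were within their errors of 0. DUSP8 and DUSP10 then had 6.05 ± 2.12 and 1.26 ± 0.468 CPM. At 24 h, in the 38 libraries, the excess of DUSP1 was 5.33 ± 4.71 CPM and that of DUSP5 0.316 ± 0.551 CPM.

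**Figure D3:**
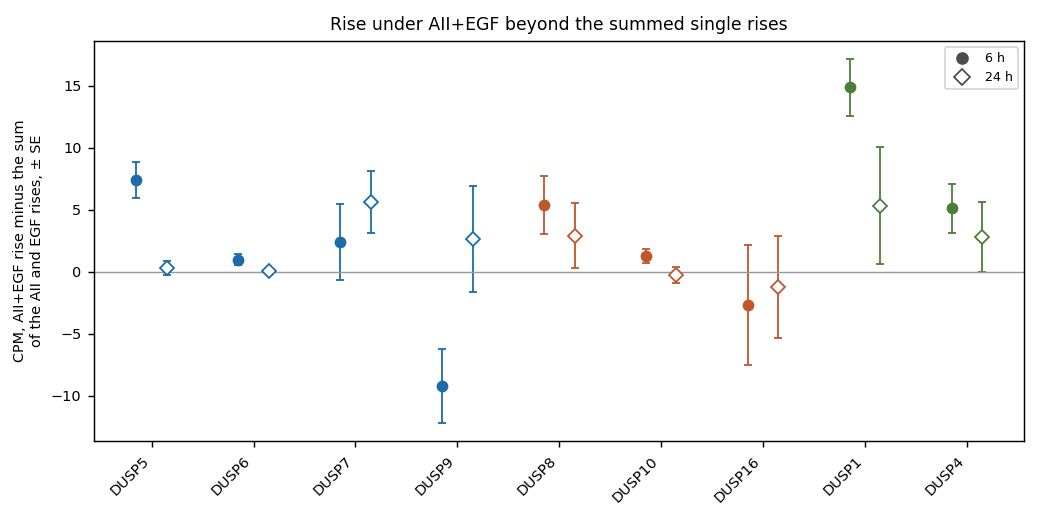
For the 9 tested members, the mean CPM rise over control under AII + EGF minus the sum of the rises under AII and EGF, with its standard error, at 6 h (filled circles) and 24 h (open diamonds). Blue marks ERK-selective, orange stress kinase and green broad nuclear members. DUSP1 stands highest at 6 h with 14.9 CPM and DUSP9 lowest with -9.23 CPM.

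The AII + EGF response was smaller at 24 h than at 6 h for the 4 members that passed the test of that difference, 4 of 9 against 8.84% of all genes. The difference between the AII + EGF response at 24 h and at 6 h was -1.51 ± 0.21 for DUSP5 (edgeR adjusted p = 7.39e-07), -1.70 ± 0.42 for DUSP6 (edgeR adjusted p = 0.0024), -0.53 ± 0.10 for DUSP7 (edgeR adjusted p = 1.71e-04) and -0.73 ± 0.21 for DUSP4 (edgeR adjusted p = 0.00958). DUSP5 and DUSP4 were called lower, 2 of 9 against 6.08% of all genes. DUSP1 had -0.29 ± 0.19 and did not pass (edgeR adjusted p = 0.293, 95% interval -0.68 to 0.10). Among all 48 libraries DUSP5 stayed called (-1.18 ± 0.34) and DUSP4 did not (-0.26 ± 0.25, edgeR adjusted p = 0.473), DUSP6 lost the test (-1.28 ± 0.45, edgeR adjusted p = 0.0285), and DUSP8 passed it upward (0.38 ± 0.15 in the 38 libraries, 0.47 ± 0.14 in the 48, edgeR adjusted p = 0.00795). The DUSP4 call was also lost in 31 of the 38 fits that leave out 1 library. The DUSP4 control rose between the times (11.9% of all genes did), by 0.52 ± 0.16 (edgeR adjusted p = 0.00972), lost in 30 of the 38 fits without 1 library, and with all 48 libraries it did not pass (0.25 ± 0.18, edgeR adjusted p = 0.31). For the EGF response, the same difference was called for 0 of 9 members (1.03% of all genes), with DUSP5 at -0.70 ± 0.22 (edgeR adjusted p = 0.0711), and the unadjusted edgeR p was under 0.05 for 5 members.

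The ERK-selective and the stress kinase members had median changes of opposite sign at 6 h. Under AII + EGF, 3 of 4 ERK-selective members (DUSP5, DUSP6, DUSP7) and both tested broad nuclear members passed the test upward, against 12.4% of all genes. Of the stress kinase members, 0 of 3 passed in either direction, against 23.4%. With so few members, that count does not by itself set the stress kinase members apart from all genes. The median log2 change was 1.403 for the ERK-selective and -0.25 for the stress kinase members, beside -0.03 over all genes tested. Under EGF the same medians were 0.998 and -0.24, and under AII 0.29 and -0.34. DUSP9, also ERK-selective, did not pass under AII + EGF, and differences between members were not tested.

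Per library, the mean log2(CPM + 0.5) of the 4 ERK-selective members minus that of the 3 stress kinase members summarises the balance of the classes, on a scale that weights genes equally and does not correct for gene length. It was -1.53 ± 0.13 in the 6 h control (SD, n = 4), -1.02 ± 0.15 under AII (n = 5), -0.49 ± 0.02 under EGF (n = 3) and -0.13 ± 0.07 under AII + EGF (n = 4). These groups did not overlap. At 24 h it was -1.47 ± 0.18 in control (n = 6), -1.46 ± 0.09 under AII (n = 5), -1.24 ± 0.18 under EGF (n = 5) and -1.15 ± 0.07 under AII + EGF (n = 6). The AII group then lay within the control range and the AII + EGF libraries, at -1.22 to -1.04, lay narrowly above the control libraries, at -1.74 to -1.23. With all 48 libraries the 6 h means were -1.49 ± 0.15, -0.87 ± 0.39, -0.51 ± 0.07 and -0.33 ± 0.38 (n = 6 each), and the AII and AII + EGF groups overlapped through the libraries in doubt, at -0.13 and -1.07. The ERK-selective members contributed unevenly at 6 h. Under AII + EGF in the 38 libraries their log2 changes were 2.32 for DUSP5, 2.65 for DUSP6, 0.49 for DUSP7 and 0.18 for DUSP9. DUSP6 had 5 to 12 counts per library in control.

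**Figure D4:**
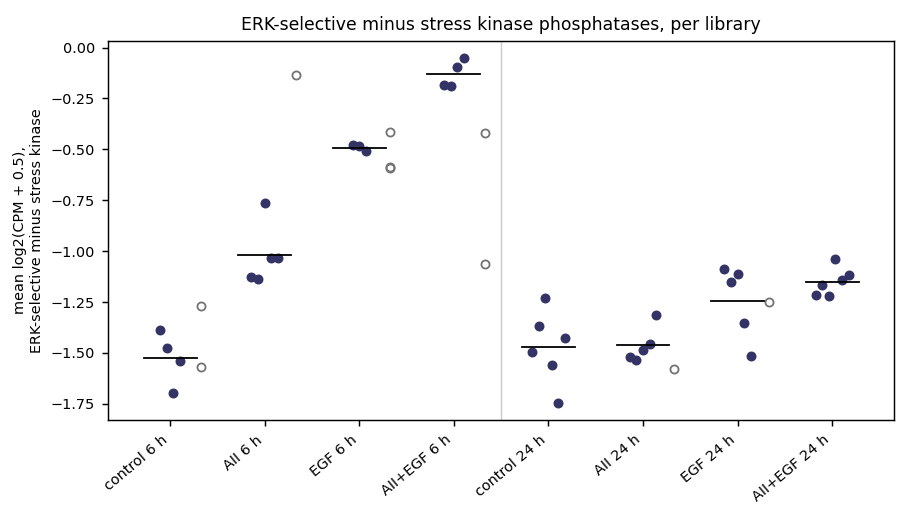
The mean log2(CPM + 0.5) of DUSP5, DUSP6, DUSP7 and DUSP9 minus that of DUSP8, DUSP10 and DUSP16 in each library, by group. Filled points are the 38 libraries used, lines are group means and open points are the libraries set aside. At 6 h the means step up from -1.53 in control to -0.13 under AII + EGF, and the open AII and AII + EGF points at -0.13 and -1.07 are the 2 libraries whose labels are in doubt.

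The kinases that these enzymes switch off were described from fixed lists. Under AII + EGF at 6 h, 0 of 13 MAP kinases were called and 1 passed the test, MAPK6, the atypical kinase ERK3, at 0.41 ± 0.11 (edgeR adjusted p = 0.00284). Of 7 MAP kinase kinases, 3 were called, where 12% of all genes were called in either direction and 23.4% passed the test. MAP2K6, an activator of p38, fell by 2.84 on the log2 scale (SE 0.20, edgeR adjusted p = 2.36e-14), from 10.01 ± 1.92 CPM in control (n = 4) through 6.49 ± 0.996 under AII (n = 5) and 4.73 ± 0.979 under EGF (n = 3) to 1.39 ± 0.261 under AII + EGF (n = 4). MAP2K1, the ERK activator MEK1, rose by 0.91 ± 0.10 from 66.9 ± 4.55 to 125.4 ± 8.24 CPM, and MAP2K4, an activator of JNK and p38, by 0.76 ± 0.09 from 49.7 ± 3.04 to 83.9 ± 3.40 CPM. All 3 stayed called with all 48 libraries. MAP2K6 was back at 10.7 ± 2.06 CPM under AII + EGF at 24 h (n = 6), beside 12.5 ± 1.42 in control (n = 6).

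The ERK output genes, a list of 10 transcripts commonly used to read ERK activity, gave the scale for the phosphatases. Under AII + EGF at 6 h, 9 of 10 passed upward and 1 downward, against 12.4% and 11% of all genes. Of the 10, 7 were called higher and 1 lower, against 12% of all genes called in either direction. The median log2 change of the list was 1.94. ETV4 and ETV5, ETS factors downstream of ERK, rose by 7.75 ± 0.73 and 6.49 ± 0.53, from 0.0744 ± 0.0605 to 16.9 ± 1.83 CPM and from 0.922 ± 0.293 to 83.3 ± 5.55 CPM (n = 4 each). The ETV4 control held a library at 0, so its fold change depends on the small count added in the fit. EPHA2, an ephrin receptor, rose by 2.89 ± 0.20 from 11.7 ± 2.63 to 87.0 ± 11.7 CPM, and EPHA4, another ephrin receptor, fell by 1.00 on the log2 scale (SE 0.10). The list had 4 of 10 past the test under AII and 8 of 10 under EGF at 6 h, all upward, against 0.922% of all genes in either direction and 2.71% upward. At 24 h it had 0, 4 and 7 under AII, EGF and AII + EGF, against 0%, 0.392% and 5.29%.

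Other phosphatases passed the test at about the share of all genes, 23.4%. Of 13 further dual-specificity phosphatases tested under AII + EGF at 6 h, 2 passed upward (DUSP3 and DUSP14) and 2 downward (DUSP19 and DUSP22), and DUSP19, an atypical enzyme linked to JNK signalling, was the 1 called, at -0.92 ± 0.15 (edgeR adjusted p = 5.82e-06). Its level fell from 11.9 ± 1.69 CPM in control to 6.30 ± 1.35 under AII + EGF (n = 4 each). Of 6 other MAP kinase phosphatases tested, such as subunits of PP2A and the PPM1 family, 0 were called and 1 passed, PPM1D at -0.31 ± 0.09 (edgeR adjusted p = 0.00981, and 0.111 with all 48 libraries). Both lists, like the 2 of kinases and the ERK output genes, are described by counts only.

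Among the members themselves, the strongest correlations of log2(CPM + 0.5) over the 38 libraries were between DUSP5 and DUSP6 (Pearson's r = 0.88), DUSP1 and DUSP4 (0.85) and DUSP5 and DUSP7 (0.80). DUSP10 and DUSP7 were the most opposed pair (-0.62), followed by DUSP8 and DUSP7 (-0.58). These values are descriptions, since the libraries share 8 groups, 2 times and their scaling. Among all genes tested outside the members, the patterns most like DUSP5 were those of TNFRSF12A (0.96), NCS1 (0.95) and EGR3 (0.95), and the most like DUSP4 were KRT17 (0.94), CTSB (0.94) and EPHA2 (0.93). DUSP1 was closest to CTSB (0.93), GADD45A (0.92) and SMCO4 (0.89). DUSP9 was closest to AC242842.1, AC241585.2 and NECAB3 (0.88, 0.87 and 0.87).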

How the data were processed

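Poly(A) RNA of 48 libraries was sequenced. Per the labels and the study's methods, the authors aligned reads to hg38 with HISAT2 2.1.0 counted them per gene with featureCounts and named genes from Ensembl v100; the deposited values are raw counts. Strand and multimapping settings are not given in the sources used here, so reads shared with paralogs or antisense genes cannot be told apart. The members and the lists were chosen with earlier results of these data known.

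From the counts, 38 libraries in 8 groups entered 1 fit without covariates in edgeR 4.0.16 (R 4.3.3): filterByExpr by group, TMM factors and quasi-likelihood tests with Benjamini-Hochberg adjustment over 19626 genes. Calls needed an adjusted p under 0.01, 1.5-fold or more, and over 5 CPM on average in the higher group (in the highest group for interactions and differences between times). Intervals are at 95%. The named genes were the 10 members, of each list the called genes with the 3 largest changes under AII + EGF at 6 h, and for each called member the 3 most similar genes by Pearson's r of log2(CPM + 0.5). MAPK6, EPHA4, DUSP3, DUSP14, DUSP22 and PPM1D were named after their values were seen. Exon lengths came from a GRCh37 annotation and serve for levels only. Totals were 17.78 to 29.96 M counts per library. The steps were tested on simulated data of 19132 genes, where recovery meant an adjusted p under 0.01 without the other limits. For AII + EGF against control at 6 h, 186 of 200 genes simulated at a log2 change of 1 were recovered, with 3 false ones. For the interaction at 6 h, 136 of 200 were recovered, with 1 false one, so that the interaction test missed more of them. Alternatives were other sets of libraries, RLE factors, other filters and thresholds, only the groups compared, stretches of consecutive sample titles that pass once through the treatments as a block (inferred from title order, not stated as a batch), DESeq2 1.42.0 and leaving out each library.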

Additional observations from a re-analysis of the deposited data

Results flagged for a closer look

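Of 70 combinations of member and group with 4 to 10 libraries, 5 held a library far from the rest by Dixon's criterion, and chance alone gives about 1 in 20. DUSP4 was lowest in EGF 24 h replicate 6, at 12.2 CPM against 18.9 to 21.4 CPM in the other libraries, and in control 24 h replicate 6, at 8.08 against 11.6 to 13.5 CPM. Replicate 6 was the lowest DUSP4 library in all 4 groups of 24 h, with 10.7 CPM under AII and 14.7 CPM under AII + EGF, and these 4 libraries have consecutive titles. DUSP5 was lowest in AII 6 h replicate 2, at 3.71 against 4.84 to 5.10 CPM. DUSP10 was lowest in AII + EGF 24 h replicate 6, at 4.02 against 4.41 to 4.64 CPM. DUSP7 was highest in AII + EGF 24 h replicate 3, at 46.9 against 40.2 to 42.6 CPM.

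The AII + EGF response differed between 24 h and 6 h by a log2 value of -1.51 for DUSP5 and -0.73 for DUSP4, by a test of the difference in edgeR. In libraries outside the comparisons, the library labelled AII 6 h replicate 6 held 32.5 CPM of DUSP1, 20.9 CPM of DUSP4 and 11.5 CPM of DUSP5, where the highest control libraries of 6 h held 26.05, 9.32 and 3.97 CPM on the same scale. The library labelled AII + EGF 6 h replicate 6 held 13.4 CPM of DUSP4. Whether these libraries were exchanged was not tested.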

How the results depend on the processing

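The 6 h calls of DUSP4 and DUSP5 under AII + EGF held under all alternatives, and the choice of libraries moved most other counts; the cause was not tested. Members called, in place of the count in the 38 libraries, were as follows. With all 48 libraries there were 2 for AII + EGF at 6 h (3, without DUSP1), 0 for EGF at 24 h (1), 1 for AII + EGF at 24 h (2), 0 for AII + EGF against EGF at 6 h (1), 1 against AII at 24 h (2), 1 for the AII + EGF response between times (2) and 0 between controls (1), and the class difference between AII + EGF and control at 6 h was 1.16 in place of 1.396. The 46 libraries with the near-identical pairs gave the same counts except for AII + EGF at 6 h (3) and against EGF at 6 h (1), and 1 for the EGF response between times (0). The 40 libraries with those in doubt gave 1 for EGF at 6 h (2), 0 for EGF at 24 h, 1 for AII + EGF at 24 h, 0 against EGF at 6 h, 1 against AII at 24 h and 0 for the AII + EGF response between times. With only the groups compared there were 0 for EGF at 24 h, 3 against EGF at 6 h, 1 for the interaction at 6 h (0), 1 for the response between times and 0 between controls. RLE factors, no filter and the study's filter each gave 1 for that response. DESeq2 or an adjusted p under 0.05 gave 1 for AII at 6 h (0) and 2 against EGF at 6 h, as did 39 libraries for the latter. The block of consecutive titles gave 3 against EGF at 6 h, no abundance minimum 2 for EGF at 24 h and no fold minimum 2 between controls.

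Without 1 library in turn the counts ranged from 2 to 3 for EGF at 6 h, 0 to 1 for EGF at 24 h, 1 to 3 for AII + EGF at 24 h, 1 to 2 against EGF at 6 h, 1 to 2 against AII at 24 h, 1 to 2 for the response and 1 to 2 between controls, and the class difference from 1.34 to 1.44.

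Log2 values that changed sign had passed no test. Under AII at 6 h these were DUSP1 at 0.024 (40 libraries) and DUSP9 at -0.090 (48) and -0.073 (46); under AII + EGF, DUSP9 at -0.043 (48) and DUSP16 at -0.054 to 0.035 without 1 library. For the interaction at 6 h they were DUSP4 at -0.069 (48) and -0.28 (40), DUSP5 at -0.15 (48) and -0.044 (40), DUSP7 at -0.077 (48) and -0.12 (40), DUSP6 at -0.19 (40) and DUSP16 at 0.047 (48) and 0.058 (46). Without 1 library they ranged from -0.053 to 0.12 for DUSP4, -0.015 to 0.11 for DUSP7 and -0.075 to 0.014 for DUSP16. The titles give no replicate number, so libraries were not paired by label. Beside its count against EGF at 6 h given above, the block, inferred from title order, gave 3 for EGF at 6 h with DUSP9 (2). It could not be fitted between controls, as each stretch holds 1 time. In the 38 libraries, DUSP2 and, in the 6 h control, DUSP6 are limited by counts of 12 or fewer. DUSP6 had 8 to 19 counts in the 24 h control.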

Other observations

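Libraries of a near-identical pair with different labels held nearly the same DUSP4 level, which follows from the near-identical counts by which the pairs were found. Control 6 h replicate 1 held 14.4 CPM and EGF 24 h replicate 2 held 14.5 CPM, control 6 h replicate 2 held 12.1 CPM and AII 24 h replicate 4 held 12.2 CPM, while 21.9 CPM in EGF 6 h replicate 1 stood beside 21.95 CPM in AII + EGF 6 h replicate 4.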
